A study of Mus musculus with 80 samples.

Results

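The 7 precursor genes of feeding and arousal peptides, written here by symbol as Npy, Agrp, Pomc, Cartpt, Pmch, Hcrt and Gal, were followed through 5 brain regions of virgin and primiparous mice. The 7 genes were taken by name from the 27179 genes of the count table, and all 7 were among the 13016 genes kept, which reached a level of 5 CPM (reads of a gene per 1000000 counted reads) or more in 8 or more libraries. The animals were 16 C57BL/6 females (C57BL/6J in the study's methods), 8 virgin and 8 primiparous, and the labels name no transgene. Each primiparous female was housed with a male for 2 weeks from 8 weeks of age, raised and weaned her pups, and gave tissue 3 weeks after weaning by the labels, a time that the study's methods place somewhat later. Virgin females were of the same age and came from the same room, but they were housed 8 per cage and had no contact with males. Housing and contact with males thus differed along with reproductive experience and cannot be told apart from it. The study states that some of its differences could be due to the social interactions and mating with males. Libraries of the hypothalamus and the neocortex numbered 8 per state, and those of the amygdala, the hippocampus and the cerebellum numbered 7 virgin and 8 primiparous. Following the terms of the study, a gene higher in primiparous females is called induced by reproductive experience and a gene higher in virgin females repressed.

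The hypothalamus holds small groups of neurons that each make 1 or a few of these peptides. In the arcuate nucleus, one group makes neuropeptide Y (Npy) and agouti-related peptide (Agrp), which promote feeding. A neighbouring group makes pro-opiomelanocortin (Pomc), the precursor of melanocortins that curb feeding, often together with the cocaine- and amphetamine-regulated transcript peptide (Cartpt). In the lateral hypothalamus, separate groups make melanin-concentrating hormone (Pmch) and the hypocretins, also called orexins (Hcrt), which act on sleep, waking and food seeking. Galanin (Gal) is made in many hypothalamic nuclei, including the preoptic area, where galanin neurons are known to act in parental behavior. Npy is also made by interneurons of the cortex and the hippocampus. Pomc is also made by endocrine cells of the pituitary.

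Npy lies on chromosome 6 of GRCm38, the mm10 genome (chr6:49822710-49829507, plus strand). The other positions are chr8:105566695-105579845 for Agrp (minus strand, RefSeq), chr12:3954951-3960642 for Pomc (plus), chr13:99898489-99901091 for Cartpt (minus), chr10:88091072-88092375 for Pmch (plus), chr11:100761069-100762931 for Hcrt (minus) and chr19:3409915-3414544 for Gal (minus). Overlaps with other genes were taken from the exons of the GENCODE gene annotation. Of the exon bases of Pmch, 435 of 749 lie opposite exons of Parpbp. Agrp shares 114 exon bases with Ctcf on the opposite strand in a GENCODE model that runs to 105637393, beyond the RefSeq span given above. Whether the reads were counted by strand is not given in the sources used here. Parpbp reached at most 1.28 CPM in any hypothalamus library, against 100.3 CPM or more for Pmch. If reads in the shared exons were left out of both counts, these levels cannot show it.

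In the hypothalamus, 3 of these genes differed between the states (adjusted p below 0.05), beside 22.6% of all genes tested. None of the 3 calls held in 3 further analyses, given below. The sequences around the start sites of the 3 genes are shown so that the genes called in each direction can be compared. Each RefSeq window runs from 250 bases before the start of the gene to 50 bases after it on GRCm38.p6, written 5′ to 3′ along the gene, at chr6:49822460-49822759 (Npy, plus strand), chr19:3414495-3414794 (Gal, minus) and chr10:88090822-88091121 (Pmch, plus). Capitals mark any of 4 motifs on either strand, namely TATAAA (the TATA box), TGACGTCA (the full cyclic AMP response element), CACGTG (the E-box) and CACCC.
Npy: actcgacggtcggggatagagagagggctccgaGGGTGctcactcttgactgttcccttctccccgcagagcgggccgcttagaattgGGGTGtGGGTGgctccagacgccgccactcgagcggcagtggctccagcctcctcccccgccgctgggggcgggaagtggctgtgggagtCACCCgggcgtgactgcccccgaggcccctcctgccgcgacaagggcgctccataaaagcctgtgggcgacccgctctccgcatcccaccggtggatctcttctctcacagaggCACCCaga
Gal: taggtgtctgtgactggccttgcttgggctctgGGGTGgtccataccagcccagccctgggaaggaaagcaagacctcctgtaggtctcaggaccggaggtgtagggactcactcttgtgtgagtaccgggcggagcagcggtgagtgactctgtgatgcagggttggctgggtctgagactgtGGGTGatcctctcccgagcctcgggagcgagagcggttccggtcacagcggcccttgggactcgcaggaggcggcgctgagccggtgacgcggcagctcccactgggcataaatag
Pmch: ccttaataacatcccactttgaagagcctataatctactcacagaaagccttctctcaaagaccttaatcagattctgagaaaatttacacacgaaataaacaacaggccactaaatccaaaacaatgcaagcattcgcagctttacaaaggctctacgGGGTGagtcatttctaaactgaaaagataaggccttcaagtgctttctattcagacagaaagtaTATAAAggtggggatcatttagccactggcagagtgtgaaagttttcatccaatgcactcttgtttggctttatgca
The induced genes Npy and Gal held no TATAAA in this window, and the repressed gene Pmch held 1, at 27 bases before the start. CACCC occurred 5 times in the Npy window, 2 times in that of Gal and 1 time in that of Pmch. Among the other windows found, Pomc and Hcrt held 1 TATAAA each, and Cartpt held the only TGACGTCA, at 112 bases before the start. CACGTG was in none of the 6 windows. Over all 32851 windows of this length, 13.6% held TATAAA, 1.79% TGACGTCA, 7.15% CACGTG and 57.5% CACCC, counting both strands. A match describes the letters only.

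The first comparison asked where in the brain each gene is expressed. Of the 7 genes, 6 had their highest level in the hypothalamus, and Npy had its highest level in the neocortex. Per kilobase of exon, Hcrt had the highest level of the 7 in the hypothalamus, at 326 ± 84.0 CPM per kilobase (SD, n = 16), followed by Pmch at 230.1 ± 64.2. The Pmch value divides by all 749 exon bases, of which 435 lie opposite exons of Parpbp. If reads there were not counted, this value is too low, and the order of Hcrt and Pmch is uncertain. Cartpt (73.5 ± 7.97), Pomc (63.5 ± 11.7), Npy (56.9 ± 16.9) and Gal (42.1 ± 9.33) lay lower, and Agrp was lowest at 9.96 ± 3.56. The peptide genes of the lateral hypothalamus, Hcrt and Pmch, thus stood above the arcuate ones on this scale. The level of Cartpt varied least between libraries, with a coefficient of variation of 10.9%, against 35.8% for Agrp.

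Npy averaged 95.5 ± 18.7 CPM in the neocortex (SD, n = 16), 50.01 ± 4.61 in the hippocampus (n = 15), 49.3 ± 5.41 in the amygdala (n = 15), 32.2 ± 9.55 in the hypothalamus (n = 16) and 13.1 ± 1.95 in the cerebellum (n = 15). Neighbours in this order differed in edgeR's quasi-likelihood test (largest adjusted p = 1.16e-13), except the hippocampus and the amygdala (log2 difference 0.025, SE 0.082, adjusted p = 0.810). Cartpt fell from 93.8 ± 10.2 CPM in the hypothalamus to 21.9 ± 6.30 in the amygdala, 6.87 ± 1.95 in the neocortex, 2.05 ± 0.575 in the hippocampus and 0.0596 ± 0.0906 in the cerebellum, and each step in this order passed the test (largest adjusted p = 1.02e-19). Cartpt was the only member with a graded order over all 5 regions in which every step passed.

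The 5 other genes had lower means outside the hypothalamus. Hcrt averaged 244.1 ± 62.9 CPM there (n = 16) and 1.40 ± 3.98 in the amygdala (n = 15), the next region, a log2 difference of 7.93 (SE 0.318). The amygdala mean of Hcrt rested on 1 primiparous library, that of animal 427 with 15.8 CPM, and the median over the 15 libraries was 0.400 CPM. Pmch averaged 172.3 ± 48.1 CPM in the hypothalamus and 1.38 ± 1.79 in the amygdala (log2 difference 6.81, SE 0.254). In the amygdala, Pmch was highest in primiparous animals 427 (6.01 CPM) and 425 (4.69 CPM). The summed level of 9 hypothalamus markers in the amygdala library of animal 427 was 627 CPM, within the range of 565 to 1132 CPM of all amygdala libraries. Gal averaged 33.2 ± 7.35 CPM in the hypothalamus and at most 1.20 ± 0.818 elsewhere, in the neocortex. Agrp averaged 10.1 ± 3.61 CPM in the hypothalamus and at most 0.408 ± 0.301 elsewhere, in the cerebellum, and no step among its 4 outer regions passed the test (smallest adjusted p = 0.498). Pomc averaged 83.6 ± 15.4 CPM in the hypothalamus and 2.27 to 4.37 CPM elsewhere, where no step passed the test (smallest adjusted p = 0.315). Its medians elsewhere were lower, from 1.325 CPM in the hippocampus to 2.217 CPM in the amygdala, and animal 427 had the highest value in each region. A count of 0 in a library allows up to 3 counts, or 0.0792 to 0.377 CPM at these depths, by counting error only.

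Npy was lower in the hypothalamus than in the neocortex, the hippocampus and the amygdala, and the other contrasts of the 7 genes between the hypothalamus and another region were higher. Of these, 16 belong to Agrp, Pmch, Hcrt and Gal, which reached 5 CPM in at most 1 library outside the hypothalamus and so passed the filter on low values only through the region where they are high. Their higher level was thus a condition of being tested, and no count of the members is read against the shares of all genes. Of all genes, 71% differed between the hypothalamus and the amygdala (36.7% higher in the hypothalamus, 34.3% lower), 73% for the hippocampus (36.9% and 36.1%), 77.7% for the neocortex (38.7% and 39%) and 81.1% for the cerebellum (40% higher). Between the other regions the share was 58.7% for the amygdala and the hippocampus, 62.5% for the amygdala and the neocortex, 80.2% for the amygdala and the cerebellum, 67% for the hippocampus and the neocortex, 78.7% for the hippocampus and the cerebellum, and 79.9% for the neocortex and the cerebellum.

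**Figure D1:**
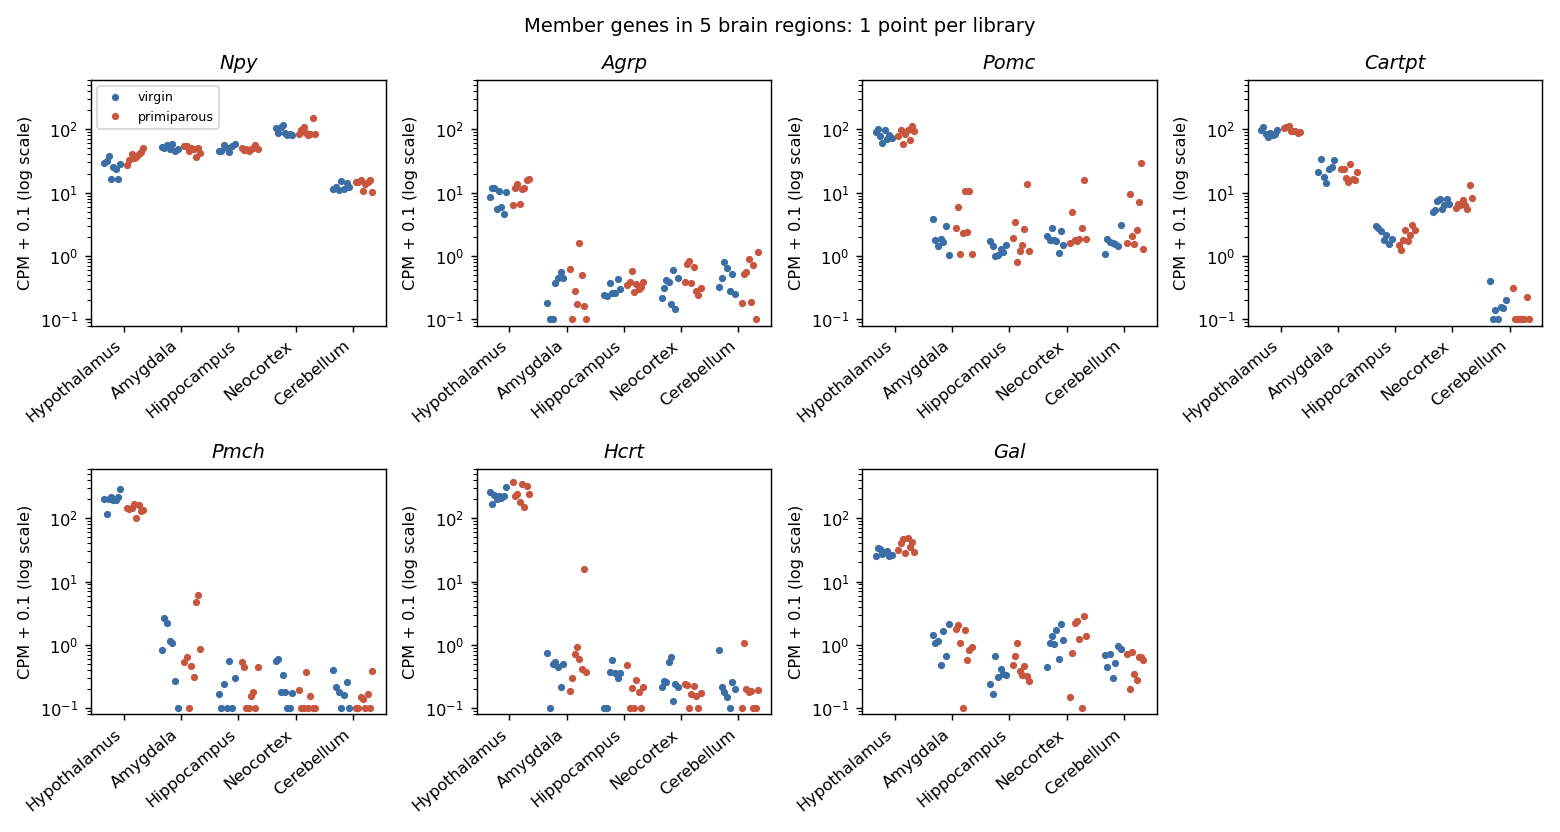
Levels of the 7 genes in 5 regions, 1 point per library, as CPM plus 0.1 on a log axis (blue virgin, red primiparous). Npy is high in every region with its highest level in the neocortex, Cartpt falls in steps, and the other 5 genes are high in the hypothalamus and average at most 4.37 CPM elsewhere.

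The next comparison asked which of these genes keep an altered level in the hypothalamus after reproductive experience. Npy and Gal were induced, Pmch was repressed, and Agrp, Cartpt, Hcrt and Pomc did not pass the test. The 3 of 7 genes called compare with 22.6% of all genes tested in this region, the 2 induced with 10.8% and the 1 repressed with 11.8%. The median log2 fold change of the 7 genes was 0.15, beside 0.014 for all genes. In tissue RNA, fewer cells of a type and less RNA per cell cannot be told apart. Libraries of a state came from separate animals.

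Among the arcuate peptides, Npy had 16.5, 26.9 and 37.4 CPM as the lowest, median and highest virgin library and 27.0, 38.03 and 51.4 CPM in primiparous females. All 8 primiparous libraries lay above the virgin mean and 4 above every virgin library, although the groups overlapped. The means were 26.0 ± 7.16 CPM in virgin and 38.4 ± 7.55 CPM in primiparous females (SD, n = 8 each), a 1.44-fold difference (log2 0.53, SE 0.150, adjusted p = 0.0168). Agrp, the partner of Npy in the same neurons, ranged from 4.46 to 11.6 CPM in virgin (median 9.18) and from 6.36 to 16.1 CPM in primiparous libraries (median 11.9). A total of 5 primiparous libraries exceeded every virgin library, but 2 lay among the low virgin values. Its fold change of 1.36 (log2 0.44, SE 0.210) had an adjusted p of 0.130 and an unadjusted p of 0.0475.

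The anorexigenic genes of the same nucleus, Pomc and Cartpt, did not pass the test. Pomc ranged from 61.6 to 100.4 CPM in virgin (median 79.0) and from 58.6 to 112.4 CPM in primiparous libraries (median 89.3), and the groups overlapped almost wholly (log2 0.062, SE 0.115, adjusted p = 0.727). Cartpt ranged from 75.1 to 107.0 CPM in virgin (median 86.7) and from 88.7 to 111.8 CPM in primiparous libraries (median 93.9). A total of 5 of 8 virgin libraries lay below every primiparous library, and the difference was small (log2 0.11, SE 0.065, adjusted p = 0.220).

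In the lateral hypothalamus, the 2 peptide genes Pmch and Hcrt gave different values. Pmch had 117.1, 201.4 and 290.4 CPM as the lowest, median and highest virgin library and 100.3, 141.8 and 169.0 CPM in primiparous females. A total of 7 of 8 virgin libraries lay above every primiparous library, and virgin animal 409 (117.1 CPM) lay among the primiparous values. The means were 204.1 ± 47.2 and 140.6 ± 20.3 CPM, a log2 fold change of −0.56 (SE 0.139, adjusted p = 0.0112). Hcrt spread widely in both states, from 166.7 to 312.3 CPM in virgin (median 225.2) and from 150.6 to 366.7 CPM in primiparous females (median 239.3). Its log2 fold change was 0.15 (SE 0.182, adjusted p = 0.585), and it ranged from 0.061 (without primiparous animal 413) to 0.23 (without primiparous animal 425) when single libraries were left out.

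Gal ranged from 25.4 to 33.7 CPM in virgin (median 28.2) and from 28.0 to 47.8 CPM in primiparous libraries (median 37.8). A total of 5 primiparous libraries exceeded every virgin library, and primiparous animals 418, 4493 and 413 lay within the virgin range. The means of 28.7 ± 3.24 and 37.6 ± 7.77 CPM gave a 1.29-fold difference (log2 0.36, SE 0.105, adjusted p = 0.0167).

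**Figure D2:**
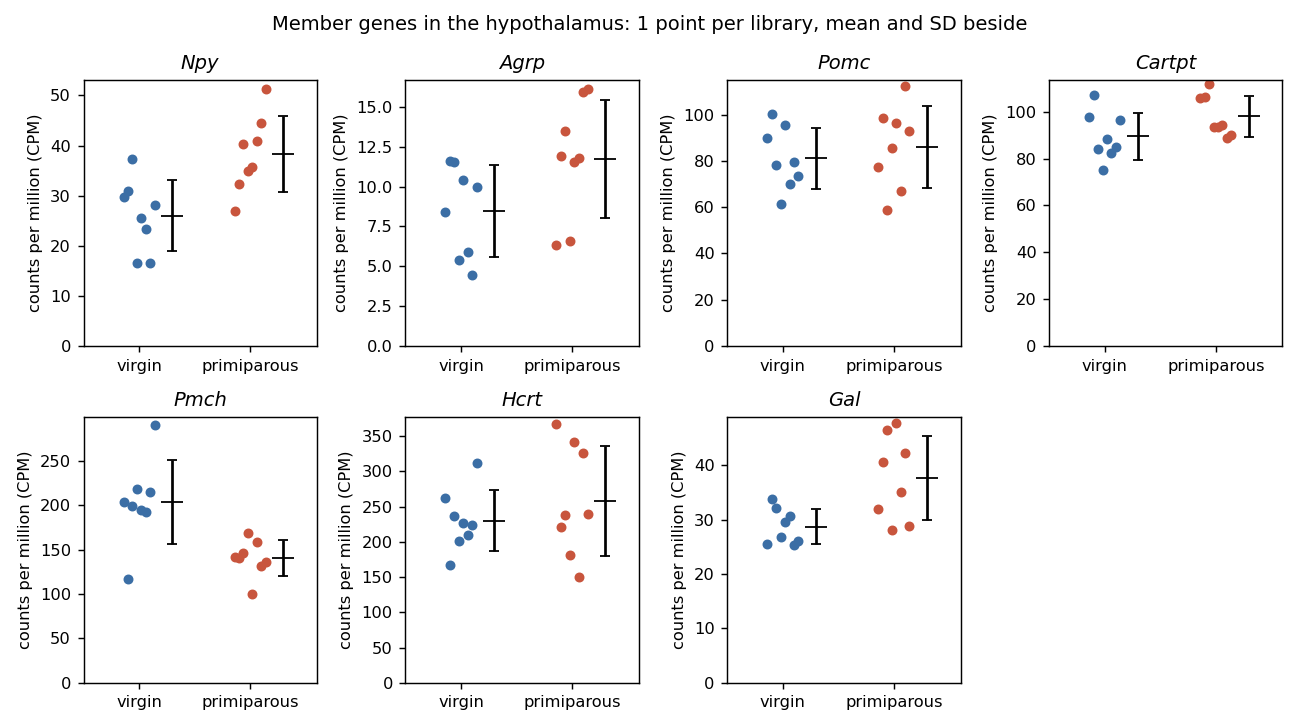
Hypothalamus libraries of virgin (blue) and primiparous (red) females in CPM, 1 point per library, with the mean and SD (n = 8) beside each group. All 8 primiparous libraries lie above the virgin mean of Npy and below the virgin mean of Pmch, and the groups overlap for each gene.

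The 3 calls held with limma-voom, DESeq2, other size factors and no filter (adjusted p up to 0.0453 for Npy, 0.0426 for Gal and 0.0216 for Pmch), and without each library in turn (up to 0.0345 for Npy, 0.0410 for Gal and 0.0240 for Pmch). In 1 fit of all 10 groups, which called 2189 genes in all, only Npy was called, with log2 fold changes of −0.56 for Pmch (adjusted p = 0.0850) and 0.37 for Gal (adjusted p = 0.321), and in 3 further analyses none of the 3 calls held. The 16 animals bear numbers of 2 series. The 3-digit series holds 7 of the 8 primiparous but only 2 of the 8 virgin females, and the 4-digit series holds the rest, so the number series and the state can barely be told apart. With the series as a covariate, the log2 fold changes were 0.55 for Npy (adjusted p = 0.215), 0.25 for Gal (0.392) and −0.37 for Pmch (0.355), and only 3 of all genes were called. By single animals, the virgin females of the 3-digit series, 405 and 409, had 29.7 and 31.0 CPM of Npy, 25.5 and 33.7 of Gal, and 203.9 and 117.1 of Pmch. The primiparous female of the 4-digit series, 4493, had 51.4 CPM of Npy, the highest of all libraries, 28.7 of Gal and 135.8 of Pmch. With each library's trend over gene length and GC content removed, the log2 fold changes were 0.40 for Npy (adjusted p = 0.180), 0.19 for Gal (0.145) and −0.38 for Pmch (0.139), and 360 genes were called in all.

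**Figure D3:**
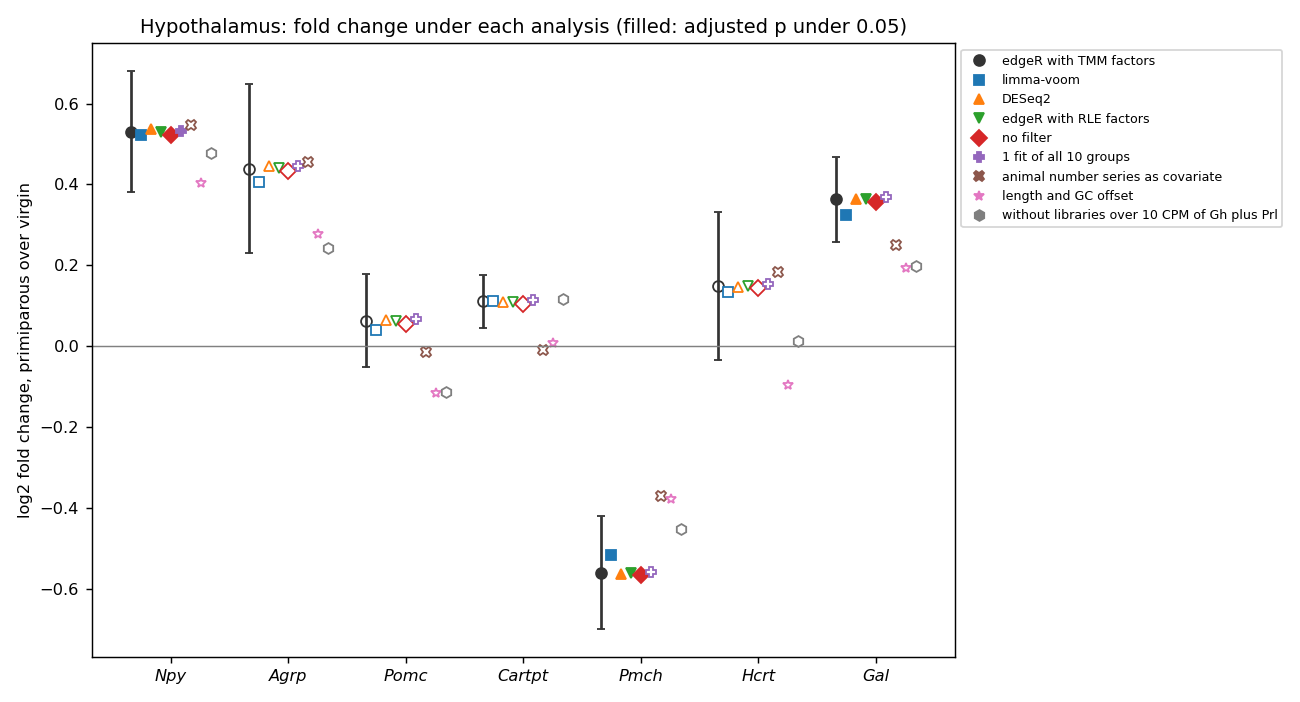
Log2 fold change of each gene in the hypothalamus, primiparous over virgin, under 9 analyses. Filled symbols have an adjusted p under 0.05, and the bars on the first symbol are the standard error. Npy, Agrp and Gal lie above 0 and Pmch below 0 in each of the 9, while Pomc, Cartpt and Hcrt change sign in some.

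The third analysis without these calls concerned pituitary RNA. The hormone genes Gh and Prl of the pituitary summed to over 10 CPM in 4 hypothalamus libraries, those of primiparous animals 414, 421 and 427 and of virgin animal 4490 (18.0 to 164.2 CPM), against 0 to 8.72 CPM in the other 12. The sum of 10 pituitary markers ranged from 24.6 to 210 CPM in virgin and from 20.7 to 172 CPM in primiparous libraries. Without these 4 libraries, the log2 fold changes were 0.48 for Npy (adjusted p = 0.0920), 0.20 for Gal (0.310) and −0.45 for Pmch (0.160), with 292 genes called in all. Pomc without them averaged 81.4 ± 14.4 CPM in 7 virgin and 76.3 ± 13.8 CPM in 5 primiparous libraries, so that its fold change turned to −0.11 (adjusted p = 0.589). The part of pituitary RNA in these differences was not tested. The summed level of 9 general hypothalamus markers also ranged higher in primiparous (2400 to 3150 CPM, median 2770) than in virgin libraries (2130 to 2610 CPM, median 2270), with Hap1 and Baiap3, the most abundant of them, induced (log2 0.29 and 0.30, adjusted p = 0.000997 and 0.00173), Sim1 repressed (log2 −0.32, adjusted p = 0.0397) and 6 not past the test. The 3 lateral hypothalamus markers summed to 119 to 142 CPM in virgin (median 124) and 120 to 151 CPM in primiparous libraries (median 126), with Nptx2 induced (log2 0.23, adjusted p = 0.0404) and 2 not past the test. Their sum was higher in the amygdala, with medians of 175 CPM in virgin and 167 CPM in primiparous libraries. It therefore does not mark the lateral hypothalamus alone. The 5 arcuate markers summed in the hypothalamus to 50.9 to 106 CPM in virgin (median 77.7) and 35.4 to 131 CPM in primiparous libraries (median 53.2). The 3 of them tested were not called (smallest adjusted p = 0.162, Tbx3). Of these markers, Slc6a3 averaged 44.4 ± 23.3 CPM in virgin and 26.2 ± 28.3 CPM in primiparous libraries. Each of the other arcuate markers had a higher mean in primiparous libraries. Among markers of other cell types and regions, Ttr of the choroid plexus (log2 1.52, adjusted p = 0.0208), Pcp2 of the cerebellum (log2 1.90, adjusted p = 0.0137), C1ql2 of the hippocampus (log2 0.39, adjusted p = 0.00372) and Lhx5 of the mammillary nuclei (log2 0.38, adjusted p = 0.0176) were induced, each the only called gene of its list, with Ttr and Pcp2 at group means of at most 3.30 and 0.938 CPM. Of the interneuron markers Sst was induced and Gad2 repressed (log2 −0.19, adjusted p = 0.0342), and none of the tested markers of the pituitary, thalamus, striatum, locus coeruleus, amygdala or neocortex was called by edgeR. The part of the dissection in the differences was not tested.

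0 of the 7 genes passed the edgeR test between the states in the other 4 regions, where 0% (amygdala, hippocampus, neocortex) and 0.707% (cerebellum) of all genes were called. The 92 genes called in the cerebellum became 6 without virgin animal 4486 and 898 without primiparous animal 4493. At an unadjusted p under 0.05 there were 2 of the 7 in the amygdala (Hcrt and Pomc), beside 1544 of all 13016 genes, and 1 of the 7, Pomc, in each of the other three, beside 961 in the hippocampus, 1277 in the neocortex and 2537 in the cerebellum. limma-voom called 0 in each region, and DESeq2 called 1, Pomc in the cerebellum, where it called 505 of all genes, against 92 with edgeR.

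Npy, which was induced in the hypothalamus, was within 0.15 of no change on the log2 scale elsewhere. It averaged 51.2 ± 4.42 CPM in virgin (n = 7) and 47.6 ± 5.92 CPM in primiparous females (n = 8) in the amygdala (log2 −0.095, SE 0.080, adjusted p = 0.684). The log2 fold changes were −0.028 in the hippocampus (SE 0.063, adjusted p = 0.946), 0.084 in the neocortex (SE 0.118, adjusted p = 0.764) and 0.14 in the cerebellum (SE 0.111, adjusted p = 0.479). Tested as an interaction in 1 fit of both regions, the state difference of Npy was larger in the hypothalamus than in the amygdala by 0.63 (SE 0.179, adjusted p = 0.0140) and than in the hippocampus by 0.55 (SE 0.175, adjusted p = 0.0306). Against the neocortex it was 0.45 (SE 0.199, adjusted p = 1) and against the cerebellum 0.38 (SE 0.199, adjusted p = 0.192), neither past the threshold. Of the 7 genes, 1 passed in the amygdala comparison, where 18.2% of all genes did, 1 in the hippocampus comparison (17.2%), 0 in the neocortex comparison (0%) and 1 in the cerebellum comparison (15.5%). At an unadjusted p under 0.05 these counts were 3 (Npy, Pomc and Hcrt), 2 (Npy and Pomc), 2 (Npy and Pomc) and 2 (Pomc and Gal) of the 7, beside 4256, 4350, 336 and 3969 of all 13016 genes. With the animal as a block and the length and GC offset together, the Npy differences were 0.43 (adjusted p = 0.225) and 0.33 (adjusted p = 0.308). These 4 interactions share the hypothalamus libraries. The interactions of Agrp, Pmch, Hcrt and Gal enter these counts but are not read further, because these genes had few counts outside the hypothalamus.

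Pomc had higher means in primiparous females in all 4 of these regions without passing the test, and the excess sat in a few libraries. In the cerebellum it had 0.971, 1.48 and 2.97 CPM as the lowest, median and highest virgin library and 1.20, 2.21 and 29.1 CPM in primiparous females (log2 2.07, SE 0.762, adjusted p = 0.170). The highest library was that of animal 427. In the neocortex the virgin libraries reached 2.62 and the primiparous ones 15.6 CPM (log2 1.22, SE 0.467, adjusted p = 0.479), in the hippocampus 1.597 and 13.6 CPM (log2 1.40, SE 0.600, adjusted p = 0.661) and in the amygdala 3.78 and 10.6 CPM (log2 1.20, SE 0.495, adjusted p = 0.340). Animal 427 was the highest in each region, also in the hypothalamus (112.4 CPM). When single libraries were left out, the log2 fold change ranged from 1.14 to 2.29 in the cerebellum and from 0.447 to 1.35 in the neocortex. It ranged from 0.547 to 1.55 in the hippocampus and from 0.894 to 1.42 in the amygdala.

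The same animal had the most Gh plus Prl in each of the other 4 regions, at 118.9 CPM in the cerebellum, 114.3 in the neocortex, 59.0 in the hippocampus and 169.7 in the amygdala. Without the libraries over 10 CPM of Gh plus Prl (3 or 4 per region), Pomc averaged 1.64 ± 0.631 CPM in virgin and 2.80 ± 2.36 CPM in primiparous cerebellum (n = 7 and 5), 1.71 ± 0.494 and 1.85 ± 0.428 CPM in the neocortex (n = 7 and 6), 1.20 ± 0.257 and 1.38 ± 0.725 CPM in the hippocampus (n = 7 and 5), and 1.84 ± 0.994 and 1.82 ± 0.788 CPM in the amygdala (n = 6 and 5). The Pomc state difference in the hypothalamus minus the cerebellum was −2.04 (SE 0.708, adjusted p = 0.0497), with the animal as a block it was −1.41 (adjusted p = 0.210), and with limma-voom −1.19 (adjusted p = 0.231). The part of pituitary RNA in these Pomc values was not tested.

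**Figure D4:**
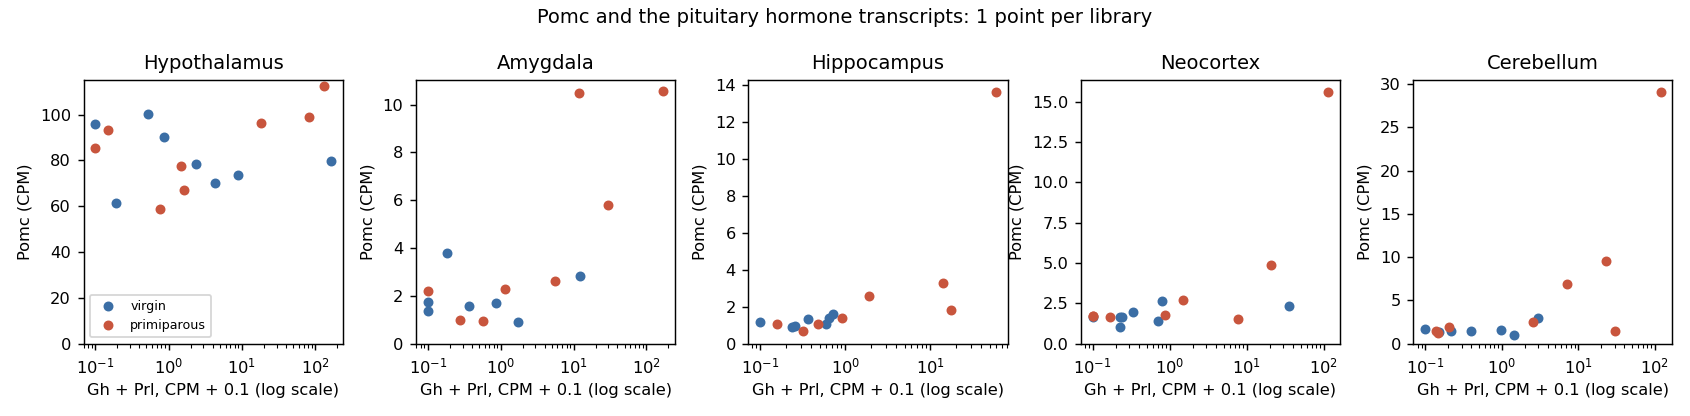
Pomc in CPM against the sum of Gh and Prl in CPM plus 0.1 on a log axis, 1 point per library, in each region (blue virgin, red primiparous). Outside the hypothalamus, the library of animal 427 is highest on both axes, with Pomc at 10.6 to 29.1 CPM.

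Cartpt had values of 24.1 ± 7.38 CPM in virgin and 19.9 ± 4.85 CPM in primiparous amygdala (log2 −0.27, SE 0.179, adjusted p = 0.588). In the neocortex its log2 fold change was 0.23 (SE 0.166, adjusted p = 0.564), or 0.055 without animal 427 (adjusted p = 0.857), and in the hippocampus −0.085 (SE 0.217, adjusted p = 0.951). Agrp, Pmch, Hcrt and Gal averaged at most 0.441, 1.63, 2.32 and 1.30 CPM, respectively, in any group outside the hypothalamus, so their fold changes there rest on few counts and are not given.

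Whether the peptide genes vary together was examined over the 16 hypothalamus libraries, on log2(CPM + 4) centred within each state, for 21 pairs of genes. Npy and Agrp had the highest correlation (Pearson r = 0.851, permutation p = 1e-05, the smallest that 100000 permutations give, adjusted p = 0.00021 over the 21 pairs, Spearman rho = 0.838, permutation p = 0.0001, adjusted p = 0.0021). It was 0.899 within virgin and 0.821 within primiparous libraries, and 0.802 without the 2 libraries farthest from the median of Npy. Pmch and Gal had a negative correlation (r = −0.570, permutation p = 0.00376, adjusted p = 0.0395, rho = −0.562, permutation p = 0.0298, adjusted p = 0.209), with r = −0.740 in virgin and −0.602 in primiparous libraries and −0.613 without the 2 farthest libraries, and on TMM-scaled CPM it did not pass (r = −0.540, adjusted p = 0.0610). The other 19 pairs did not pass. Among these, Npy with Pomc had r = 0.302 (permutation p = 0.250, adjusted p = 0.793), and Pmch with Hcrt, from neighbouring but separate neurons, had r = 0.0513 (permutation p = 0.836, adjusted p = 0.885). The latter pair had opposite signs within the states, 0.850 in virgin and −0.704 in primiparous libraries, and r was −0.668 over both states without the 2 libraries farthest from the median of Pmch. This pair was singled out after its values were seen, and the difference between the states was not tested. How many pairs of other genes would pass was not measured. Agrp, for example, had a higher r with the ribosomal protein gene Rpl35a (0.880) than with Npy.

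**Figure D5:**
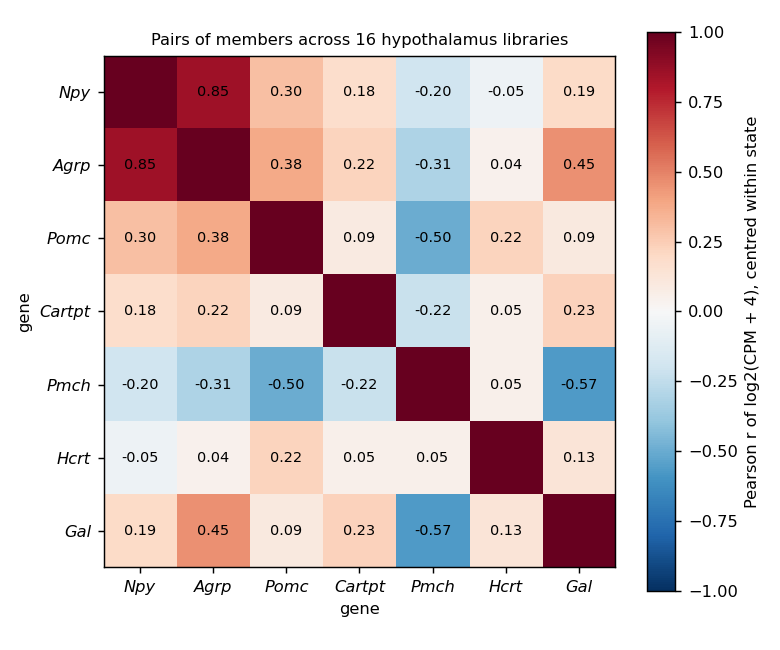
Pearson r of each pair of genes over 16 hypothalamus libraries, from log2(CPM + 4) centred within virgin and primiparous females. Npy with Agrp has the highest value (0.85) and Pmch with Gal the lowest (−0.57).

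The genes whose hypothalamic levels were most like each member, by r over the same 16 libraries, were Smim3 (0.861), Agrp (0.851) and Sult1a1 (0.829) for Npy. Agrp itself was nearest to the ribosomal protein gene Rpl35a (0.880), Carhsp1 (0.866) and the metallothionein gene Mt2 (0.860). Pmch was nearest to Micu3 (0.922), U2surp (0.915) and Serbp1 (0.909). Gal was nearest to Abtb2 (0.930), Pea15a (0.920) and Eif3l (0.910), a subunit of the translation initiation factor eIF3. Pomc was nearest to Fibp (0.805), Mtor (0.798) and Farp1 (0.790), Cartpt to Abhd11 (0.821), Nprl2 (0.818) and Lamtor4 (0.814), and Hcrt to Ap3b1 (0.811), Mul1 (0.789) and Man1a (0.781). The values of Hcrt were uneven between the states for Mul1 (0.321 in virgin and 0.932 in primiparous libraries) and Man1a (0.479 and 0.861). These values are descriptions of libraries that share their preparation.

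The receptors through which these peptides act did not pass the test in the hypothalamus. Of 14 receptor genes, 9 passed the filter on low values and 0 were called by edgeR, beside 22.6% of all genes, at a median log2 fold change of −0.10. DESeq2 and limma-voom called Npy1r, the 1 receptor gene with an unadjusted p under 0.05, and edgeR called it in 4 of the 16 fits that left out a library. Npy1r, a receptor of neuropeptide Y, averaged 21.3 ± 1.94 CPM in virgin and 18.2 ± 3.10 CPM in primiparous females (log2 −0.25, SE 0.095, adjusted p = 0.0557). Npy2r (log2 −0.15, adjusted p = 0.193) and Npy5r (log2 −0.29, adjusted p = 0.264) had negative values as well. The galanin receptor gene Galr1 (log2 0.19, adjusted p = 0.338) and the melanin-concentrating hormone receptor gene Mchr1 (log2 0.070, adjusted p = 0.678) had positive ones, which ranged from 0.12 to 0.25 and from 0.026 to 0.13 when single libraries were left out.

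Of 10 tested genes for hormone and nutrient sensing, 2 were repressed and 0 induced (median log2 −0.12), beside 11.8% and 10.8% of all genes. They were Prlr, the prolactin receptor (57.2 ± 5.71 to 48.0 ± 5.92 CPM, log2 −0.27, SE 0.077, adjusted p = 0.0147) and Nr3c1, the glucocorticoid receptor (log2 −0.21, SE 0.065, adjusted p = 0.0234). The leptin receptor gene Lepr had log2 0.11 (adjusted p = 0.619). Of 10 genes that process and store peptide precursors, 3 were induced and 1 repressed (median log2 −0.053), beside the same shares of all genes. Chgb and Chga, the granins of secretory granules, had log2 fold changes of 0.17 (adjusted p = 0.0073) and 0.31 (adjusted p = 0.0159). Pcsk1n, the inhibitor proSAAS of the convertase Pcsk1, had 0.33 (adjusted p = 0.0448), and Scg2, secretogranin 2, had −0.13 (adjusted p = 0.0479). The convertases Pcsk1 (log2 −0.14, adjusted p = 0.181) and Pcsk2 (log2 −0.073, adjusted p = 0.246) did not pass.

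Of 12 tested transcription factors of these neurons, 1 was induced and 0 repressed (median log2 0.12), beside 10.8% and 11.8% of all genes. It was Bsx, a homeobox factor known to act on Npy and Agrp expression, with 7.29 ± 1.13 CPM in virgin and 10.02 ± 0.993 CPM in primiparous females (log2 0.43, SE 0.112, adjusted p = 0.0101). Of 16 other hypothalamic peptide genes tested, 1 was induced and 2 repressed (median log2 0.051), beside the same shares of all genes. Sst, the precursor of somatostatin, rose from 125.0 ± 9.21 to 172.3 ± 28.0 CPM (log2 0.44, SE 0.077, adjusted p = 0.0014). Adcyap1, the precursor of PACAP, fell (log2 −0.26, SE 0.070, adjusted p = 0.0112), as did Nts, the precursor of neurotensin (log2 −0.35, SE 0.128, adjusted p = 0.0492). Each of these 10 calls was lost with the animal number series as a covariate, and without the 4 libraries with Gh plus Prl over 10 CPM Sst alone was called. Sst was also the only one called with the length and GC offset, where Prlr had −0.031 (adjusted p = 0.836), Nr3c1 −0.024 (0.814), Chgb 0.075 (0.243), Chga 0.14 (0.237), Pcsk1n 0.17 (0.274), Scg2 −0.050 (0.457), Bsx 0.34 (0.101), Adcyap1 −0.080 (0.437) and Nts −0.11 (0.684). In 1 fit of all 10 groups only Sst and Chga were called. When single libraries were left out, Scg2 lost its call in 13, Nts in 12, Pcsk1n in 11 and Nr3c1 in 3 of 16 fits. Scg2 (adjusted p = 0.0581) and Nts (0.0960) lost it with limma-voom, and Scg2 (0.0584), Nts (0.0665) and Pcsk1n (0.101) lost it in edgeR with no filter.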

How the data were processed

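RNA-seq libraries (polyadenylated RNA, single-end reads) covered 5 regions of 16 mice, and 77 of 80 libraries were analysed. By their processing notes the authors used CASAVA, HISAT2, mm10 and featureCounts, and the deposited counts are whole reads per gene without normalization. The deposited log2 values were used for gene symbols and the filter only. Counted reads ranged from 7959192 to 37871854 per library. Genes that reached 5 CPM in 8 or more libraries were tested.

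Each region was fitted alone with edgeR 4.0.16 (TMM factors, robust quasi-likelihood F-test) in R 4.3.3, with Benjamini-Hochberg adjustment over 13016 genes. Regions and interactions were fitted over their libraries together. Standard errors are the log2 fold change over the root of F. Alternatives used limma 3.58.1 and DESeq2 1.42.0, other factors, no filter, 1 fit of all 10 groups, the number series, and an offset for length and GC content (97.05% of genes had both). In simulated hypothalamus counts of 13016 genes with 200 changed, edgeR recovered 100% of 2-fold and 92% of 1.5-fold changes and called 10 unchanged genes. Libraries of a group differed by more than sampling noise in all 259 pairs (lowest chi-square per degree of freedom 3.02). Same-numbered libraries came from the same animal, with median correlations of −0.0132 to 0.104 between regions, against −0.0107 to 0.0067 for other animals.

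Members, lists, tests and the rule for named genes (all members, up to 4 called genes per list, receptors of called members, 3 most alike genes per member) were chosen with earlier results of these data known. Lepr, Pcsk1, Pcsk2 and some marker genes, such as Tbx3, Gh and Prl, were named outside this rule. Sequences are from RefSeq (GRCm38.p6), and the set of windows used here held 6 of the 7 genes, without Agrp. Python 3.11.15, numpy 2.4.6, pandas 2.3.3 and matplotlib 3.10.9 served for summaries.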

Additional observations from a re-analysis of the deposited data

Results flagged for a closer look

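Single libraries stood apart from the rest of their group (gap to the nearest library over the group's range above Dixon's 95% value) in 16 of 70 groups of a gene, region and state, where chance gives about 1 in 20 for normally distributed values. The rate for low and skewed counts was not measured. Of these, 7 were libraries of primiparous animal 427, namely Npy in the hippocampus (57.0 CPM) and the neocortex (152.1 CPM), Pomc in the hippocampus (13.6 CPM), the neocortex (15.6 CPM) and the cerebellum (29.1 CPM), Cartpt in the neocortex (13.1 CPM) and Hcrt in the amygdala (15.8 CPM). In the neocortex of this animal the striatum marker sum (312 CPM, beside 183 to 309.7 CPM in the other libraries) and Gh plus Prl (114.3 CPM) were the highest of the region, and the hypothalamus marker sum (203 CPM) lay within 84.8 to 255 CPM of all libraries. The other 9 lay at low levels. They were Agrp in the amygdala (1.49 CPM, animal 421) and the hippocampus (0.488 CPM, animal 415), Pomc in virgin cerebellum (2.97 CPM, animal 4491), Cartpt in virgin cerebellum (0.299 CPM, animal 405), Pmch in the neocortex (0.274 CPM, animal 418) and the cerebellum (0.289 CPM, animal 4493), and Hcrt in the hippocampus (0.390 CPM, animal 413), in primiparous cerebellum (0.963 CPM, animal 414) and in virgin cerebellum (0.747 CPM, animal 405).

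The state difference itself differed between regions in 3 interaction tests, 1 of the 7 genes in each of 3 comparisons where 18.2% (amygdala), 17.2% (hippocampus) and 15.5% (cerebellum) of all genes were called. For Npy it was larger in the hypothalamus than in the amygdala by 0.63 on the log2 scale (adjusted p = 0.0140) and than in the hippocampus by 0.55 (adjusted p = 0.0306). For Pomc it was lower in the hypothalamus than in the cerebellum (−2.04, adjusted p = 0.0497), where animal 427 gave the highest value. With the animal as a block and the length and GC offset together none of the 3 was called, beside 85 (amygdala), 60 (hippocampus) and 502 (cerebellum) of all 12632 genes tested. Pomc was also not called with the block alone (adjusted p = 0.210) or with limma-voom (adjusted p = 0.231).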

How the results depend on the processing

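The 3 member calls in the hypothalamus became 1 in 1 fit of all 10 groups and 0 with the animal number series, with the length and GC offset and without libraries over 10 CPM of Gh plus Prl (added after seeing the data). The count stayed at 3 without each library and at 0 elsewhere, except in the amygdala and the cerebellum. In the amygdala the fit of 10 groups called 1 (Hcrt), beside 142 of all 13016 genes. The amygdala mean of Hcrt rested on the library of animal 427 (15.8 CPM). In the cerebellum DESeq2 called 1 (Pomc), beside 505 of all genes. The 10 calls of the pathway lists became 2, 0, 1 and 1 under the first 4 settings and 6 to 16 without single libraries (6 without virgin animals 4487, 4489 or 4490, 16 without primiparous animal 418). The 3 interaction calls became 0 with the replicate block with length and GC offset, beside 85 (amygdala), 60 (hippocampus) and 502 (cerebellum) of all 12632 genes tested. Pomc against the cerebellum was also lost with limma-voom (−1.19, adjusted p = 0.231) and with the replicate block alone (−1.41, adjusted p = 0.210). With the replicate block alone, the Npy differences against the amygdala (0.58) and the hippocampus (0.48) kept their call. In the order of the regions, the block changed no call except that Pomc also passed between the amygdala and the hippocampus and between the hippocampus and the cerebellum, and limma-voom lost Hcrt in the amygdala over the hippocampus and the neocortex and Gal in the neocortex over the cerebellum. Of 2 correlated pairs, 1 was left with TMM-scaled CPM, where Pmch with Gal had r = −0.540 (adjusted p = 0.0610).

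Uncalled values that changed sign were Npy in the hippocampus (0.042 with the series, 0.00082 with the length and GC offset, −0.064 to 0.0077 without single libraries), the neocortex (−0.052 with the offset, −0.072 without the Gh and Prl libraries, −0.036 to 0.14 without single libraries) and the cerebellum (−0.0053 with the offset), Pomc in the hypothalamus (−0.014 with the series, −0.12 with the offset, −0.11 without the Gh and Prl libraries), Cartpt in the hypothalamus (−0.011 with the series) and the hippocampus (−0.19 to 0.0054 without single libraries), and Hcrt in the hypothalamus (−0.096), Npy2r (0.039) and Mchr1 (−0.045) with the offset. The causes were not tested. Depth limits Agrp, Pmch, Hcrt and Gal outside the hypothalamus.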
